A study of Mus musculus with 10 samples.

Results

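The loci described here were the short, mostly unspliced transcript models that GENCODE M21, the manual mouse gene annotation, classes as TEC or as sense_intronic. Within these classes they were chosen by their counts. A locus entered with 10 or more counts in at least 5 of the 10 libraries, whichever genotype those libraries had. The loci and this rule were chosen with earlier results of these data known. Of 3312 loci of these classes in the count table, 817 met the rule, 727 TEC and 90 sense_intronic, among 52636 genes in all. The filter on low counts left 782 of the 817 for testing, 698 TEC and 84 sense_intronic. The other 35 loci were not tested. At the threshold, 87 loci reached 10 counts in exactly 5 libraries, with a median of 103 counts over all libraries, and 73 loci just missed it with 4 libraries and a median of 89 counts. Gm44967 was a member with a total of 80 counts, and Gm42870 was not, although it had 199, because 125 of these were in knockout 1. Since the rule did not use genotype but did use counts, 351 loci reached 10 counts in more control than knockout libraries, 25 in more knockout libraries and 441 in as many of each. For 6 loci the threshold was met in all 5 control and 0 knockout libraries, and for 0 loci the reverse. Counts and medians over the members are therefore given as descriptions.

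The tissue was inguinal white adipose tissue, which lies under the skin, and the mice were C57BL/6, aged 6 months and fed a 65% high fat diet. TCF7L2F/F mice gave the 5 control libraries; they carry floxed alleles, and the genotype label calls them wild type. The 5 knockout libraries came from TCF7L2F/F; Adp-Cre mice, labelled adipose Tcf7l2 KO, so both groups carried the floxed alleles and differed by the Cre transgene. The diet is given as 16 weeks in the diet label, as 12 weeks in the sample description and as 4 months in the treatment protocol. Tcf7l2 encodes a transcription factor of the Wnt pathway. The Cre acts in adipocytes, and the depot also holds blood vessel, immune, nerve and progenitor cells in which the gene is left in place. In whole tissue, fewer cells of a type and less RNA per cell cannot be told apart. The labels carry a number per library but do not say that each is a separate mouse; p-values then measure only the spread between these samples, which may be technical. Library numbers 1 to 5 are the controls and 6 to 10 the knockouts, so library order and genotype cannot be told apart.

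TEC loci are those that the annotators set aside for experimental follow-up. They were drawn from unspliced transcript evidence, often with a polyadenylated end, and lacked support as genes. A sense_intronic transcript lies in an intron of another gene on the same strand and shares no exon with it. Libraries of total RNA after ribosomal RNA removal also hold unspliced precursor RNA, so a read from an unspliced intron of the host gene that falls inside such a locus is counted to the locus. The count at a locus therefore sums any transcript of its own and the host's intron RNA.

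Among the 817 loci, 784 had 1 exon block, and the median exon length was 2437 bases, with a range of 233 to 30942. A host, meaning a gene of another class on the same strand whose span contains the whole locus, was found for 626 loci in 428 hosts. Of these, 584 lay in protein-coding hosts and 42 in other genes. In all, 599 were wholly intronic and 27 overlapped a host exon. Introns here are the gaps between the host's exons merged over all its transcripts, numbered along its strand. Their numbers and lengths can differ from those of a single transcript. The host intron had a median length of 23641 bases, and 134 loci lay in intron 1 of their host. A further 94 loci lay inside an opposite-strand gene only, and 97 had no host on either strand.

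The 3′ ends of 7 loci are printed to show what these models end in, since a poly(A) signal near the end is a common feature of RNAs with a 3′ end of their own. Each line is the last 120 bases of the transcript, read 5′ to 3′ on the transcript's strand from the GENCODE M21 transcripts (GRCm38), with the canonical signal AATAAA in capitals. The loci are 2 inside Snrk, 2 inside Picalm, the only locus called higher, and 2 of the abundant loci with no host that are described below.
Gm47122: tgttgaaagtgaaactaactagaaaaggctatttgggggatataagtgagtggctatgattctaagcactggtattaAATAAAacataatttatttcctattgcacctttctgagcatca
4632418H02Rik: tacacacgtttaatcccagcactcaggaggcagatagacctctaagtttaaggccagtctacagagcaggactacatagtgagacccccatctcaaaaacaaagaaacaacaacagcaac
Gm45223: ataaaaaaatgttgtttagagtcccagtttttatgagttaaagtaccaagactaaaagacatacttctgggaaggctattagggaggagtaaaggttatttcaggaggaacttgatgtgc
Gm45222: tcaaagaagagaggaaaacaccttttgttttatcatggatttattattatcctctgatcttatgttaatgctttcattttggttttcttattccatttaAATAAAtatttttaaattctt
Gm37975: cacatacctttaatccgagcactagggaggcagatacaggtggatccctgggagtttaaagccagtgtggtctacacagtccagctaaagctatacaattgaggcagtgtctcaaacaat
Gm44250: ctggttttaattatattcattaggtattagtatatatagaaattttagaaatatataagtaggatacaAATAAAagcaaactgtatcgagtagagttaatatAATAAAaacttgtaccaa
9330162G02Rik: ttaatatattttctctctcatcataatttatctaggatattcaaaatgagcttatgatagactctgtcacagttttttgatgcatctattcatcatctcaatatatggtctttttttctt
Gm47122 (chr9:122119376-122119495, plus strand) and Gm45222 (chr7:90150135-90150254, plus strand) each hold the signal 1 time, and Gm44250 (chr6:5216258-5216377, minus strand) holds it 2 times. The other printed ends hold none: 4632418H02Rik (chr9:122129895-122130014, plus), Gm45223 (chr7:90137510-90137629, plus), Gm37975 (chr2:11532596-11532715, minus) and 9330162G02Rik (chr7:59223847-59223966, minus). Over all 817 loci, AATAAA was found on the transcript strand in the last 50 bases of 162, or 19.8%, and its reverse complement TTTATT in 5.26%. The share was 15.2% for loci with a same-strand host, 35.1% for those with only an opposite-strand host and 35.1% for those with no host. By comparison, 58.2% of the host genes, 59.7% of tested protein-coding genes and 40.6% of tested lincRNA genes held AATAAA in that window. A match describes the letters in the window and is not evidence of use, and its absence says nothing about other signals.

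Libraries held 14032866 to 17782073 counts. Tcf7l2 itself was lower in every knockout library, at 10.7 ± 0.909 CPM (counts relative to the scaled library size) in controls and 5.83 ± 0.311 in knockouts (SD, n = 5 each). Its log2 fold change was -0.87 ± 0.10 (SE; edgeR quasi-likelihood test, Benjamini-Hochberg adjusted p = 6.1e-04), with an exact two-sided permutation p of 0.00794, the smallest that 5 against 5 libraries can give. Over all 15927 tested genes, 1123 fell and 930 rose at adjusted p below 0.05.

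The loci as a group took a smaller share of the RNA counted in the knockout libraries, but control 5 did not follow the other controls. Their summed counts were 0.225% of all counts in control 1, 0.262% in control 2, 0.171% in control 3, 0.255% in control 4 and 0.131% in control 5. They were 0.146%, 0.119%, 0.142%, 0.131% and 0.104% in knockouts 1 to 5. Controls 1 to 4 lay above all 5 knockouts, and control 5 lay inside the knockout range. The group values were 0.209% ± 0.0562 and 0.128% ± 0.0172 (SD, n = 5 each), so the spread among controls was the wider. TEC loci (0.187% against 0.115%) and sense_intronic loci (0.0216% against 0.0133%) were at similar shares of the control level in the knockouts, 61.4% and 61.5%. The 407 tested host genes held 4.46% ± 0.164 of counts in controls and 4.28% ± 0.122 in knockouts, 96.0% of the control level. By the edgeR test, 64 of these hosts were lower (15.7%, against 7.05% of all tested genes) and 11 higher (2.7% against 5.84%). Their median log2 fold change was -0.06. Depth at single loci was low: the median locus had 11 counts in knockout 5, the fewest, and 32 in control 2, the most. Knockout 5 had the lowest level at 289 tested loci and knockout 2 at 148, while control 2 was the highest at 308 and control 4 at 240.

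**Figure D1:**
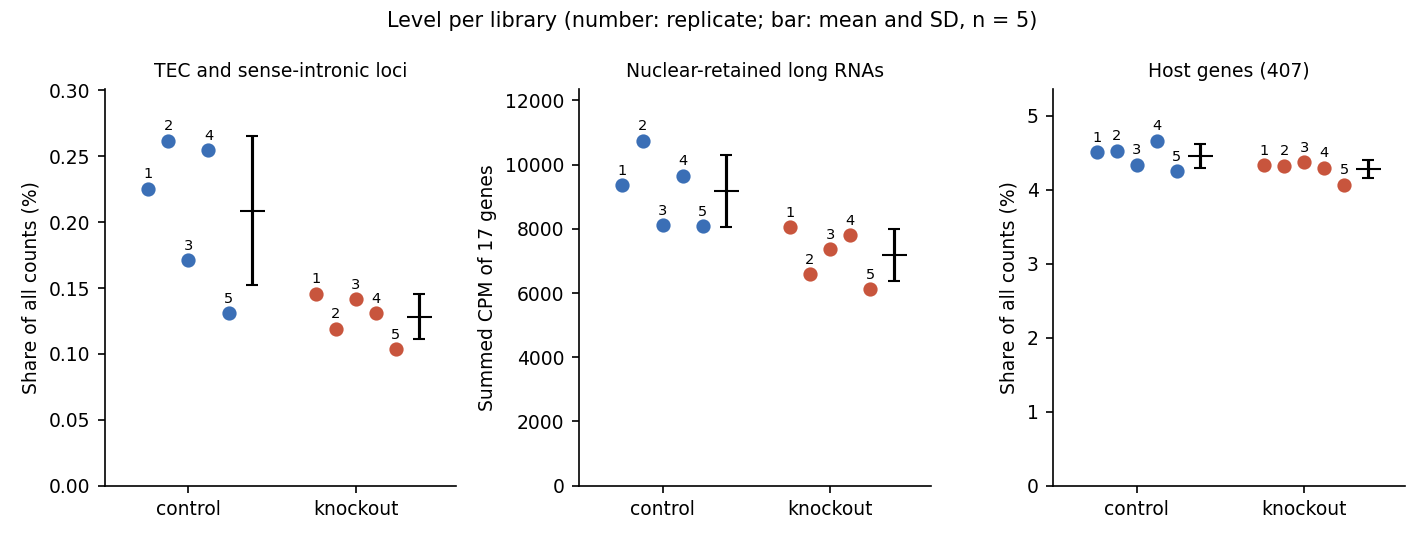
Values in each library (numbered points) with the group mean and SD (bars, n = 5): share of all counts taken by the TEC and sense_intronic loci in percent (left), summed CPM of 17 nuclear-retained long RNAs (middle) and share of counts taken by the 407 host genes in percent (right). Control 5 lies at the knockouts' level in the left panel (0.131% against 0.104% to 0.146%), and the host shares of both groups lie between 4.07% and 4.66%.

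RNAs that are known to stay in the nucleus were followed beside these loci, because intron RNA is nuclear as well. Of 17 tested genes of the list, 9 fell, 0 rose and 8 were not called, with a median log2 fold change of -0.36; Peg13 is in this list and is itself one of the loci. Their summed CPM was 9360, 10746, 8106, 9651 and 8074 in controls 1 to 5 and 8050, 6583, 7368, 7805 and 6123 in knockouts 1 to 5. In this sum all controls lay above all knockouts, by as little as 8074 against 8050. Most of the sum was Malat1, at a mean of 6019 CPM in controls, where the mean sum was 9187. Malat1, an abundant RNA of nuclear speckles, had a log2 fold change of -0.56 ± 0.13 (adjusted p = 0.0217) and Neat1, the scaffold of paraspeckles, -0.62 ± 0.12 (adjusted p = 0.0122). Kcnq1ot1, an unspliced imprinted antisense RNA, had a log2 fold change of -0.98 ± 0.21 (adjusted p = 0.0156), from 122 ± 41.1 to 61.9 ± 7.81 CPM, with control 5 at 64.2 CPM against 95.3 to 162 in the other controls. Firre, an X-linked chromatin RNA, had -0.58 ± 0.13 (adjusted p = 0.0186; 0.0548 without control 1 and 0.0572 without control 2). Control 5 lay inside the knockout range for Malat1 (4606 CPM against 3534 to 4941), Neat1 (271 against 213 to 279) and Firre (23.9 against 18.3 to 26.6) too. Peg13 and Mir99ahg, both described below, had every control above every knockout. The share of nuclear RNA in each library was not measured, and its part in the values of the loci was not tested. Malat1 lost its call without control 1, 2 or 4 or knockout 2 or 5 (adjusted p up to 0.0691).

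The edgeR test called 223 of the 782 tested loci lower in the knockout libraries and 1 higher, and did not call 558. That is 28.5% lower, where the same test called 7.05% of all tested genes lower and 5.84% higher. The median log2 fold change of the tested loci was -0.72, against 0.00 for all tested genes, and 730 of 782 loci (93.4%) had a value below 0. The falls were often large: 150 loci were both called and at least 2-fold lower, as were 1.63% of all tested genes. A complete separation of the groups was less common. In 84 loci, or 10.7%, all 5 controls lay above all 5 knockouts, which 4.45% of all tested genes did, and in 2 loci (4.55% of all genes) all knockouts lay above all controls. With control 5 set aside, a comparison chosen after its low level was seen, controls 1 to 4 lay above all knockouts in 295 loci (37.7%), against 9.54% of all genes. Control 5 lay at or below the highest knockout in 642 of the 782 loci (82.1%) and in 80.5% of all tested genes. For controls 1 to 4 these shares were 29.2%, 20.6%, 52% and 21.7% of the loci and 73.6%, 73.2%, 78.6% and 74.8% of all genes. Without control 5 the same test called 384 of 801 loci lower (10.6% of all genes), and without control 2 it called 35 of 800 (1.92% of all genes). Leaving out control 1 gave 54 (2.06% of all genes), control 4 gave 78 (3.2%), knockout 5 gave 82 (3.04%), knockout 2 gave 94 (3.25%) and knockout 4 gave 143 (5.19%). Knockout 3 gave 164 (4.76%), control 3 gave 213 (6.08%) and knockout 1 gave 230 (7.15%). The median over the loci stayed between -0.63 and -0.85 in all 10 of these fits.

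The 2 annotation classes were alike in size of change: 192 of 698 TEC loci were lower with a median of -0.70, and 31 of 84 sense_intronic loci with a median of -0.79. Other gene classes with low counts had smaller shares called lower, although antisense and lincRNA genes leaned the same way. Among protein-coding genes in the range of the middle 50% of the loci by mean CPM, 40 of 1094 were lower (3.66%) and 40 higher. Antisense genes, which also overlap other genes, had 46 of 458 lower (10%) and 8 higher, with a median of -0.30. For lincRNA genes, which lie apart from protein-coding genes, these were 36 of 367 (9.81%), 5 and -0.19. Of the antisense and lincRNA genes, 77.7% and 66.8% had a value below 0, against 50% of all tested genes. Controls 1 to 4 lay above all knockouts in 17.9% and 13.4% of them, against 9.54% of all genes. The shares of all counts that these classes took in control 5, 0.143% and 0.948%, lay inside the knockout ranges (0.136% to 0.162% and 0.746% to 1.01%). The number of calls went with the level of the locus: from the lowest to the highest quartile by mean CPM, 20, 48, 61 and 94 loci were called lower, while the medians were -0.54, -0.79, -0.71 and -0.79.

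The place of the locus went with its change. Loci with a same-strand host were lower in 198 of 597 tested (33.2%, median -0.80), loci with only an opposite-strand host in 20 of 92 (21.7%, median -0.58) and loci with no host in 5 of 93 (5.38%, median -0.35). The last share was below the 7.05% of all genes, although 80.6% of these loci had a fold change below 0. Wholly intronic loci had 195 of 570 lower (34.2%), and those that overlap a host exon 3 of 27 (11.1%), namely Gm42603 in Anxa3, Gm43422 in Tgfbr3 and Gm33869 in Nova1. The counting did not keep the strands apart: of 440 genes whose exons are wholly covered by exons of opposite-strand genes, 425 were at 0 in all libraries, while 74.6% of 41056 genes that share no exon base had a count. Reads from the introns of an opposite-strand host are thus counted to the locus as well, and the 20 falls in that set cannot be told apart from changes of the opposite host's introns. The 5 falls with no host, named after their values were seen, include loci that lie over microRNA genes on the same strand. Gm37296 (chr15:68338295-68341216, minus strand) overlaps Mir30d and fell by 0.66 ± 0.13 (adjusted p = 0.0133) with no overlap between groups, and Gm37795 (chr4:150068539-150070997, plus) overlaps Mir34a and fell by 0.68 ± 0.21 (adjusted p = 0.0474). 5430430B14Rik (chr8:27279441-27281070, plus), 2766 bases downstream of Eif4ebp1, a gene of translation control, fell by 1.40 ± 0.30. Gm48617, which overlaps part of the homeobox gene Meox2, fell by 1.37 ± 0.36, and 9330162G02Rik is described with the abundant loci. In the set with no host, 28 loci began within 5000 bases downstream of the end of a same-strand gene, and 1 of them was lower. Loci whose exons share a base with an exon of another gene lose the shared reads in this kind of counting. Without these, 198 of 650 loci were lower (30.5%, median -0.75).

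**Figure D2:**
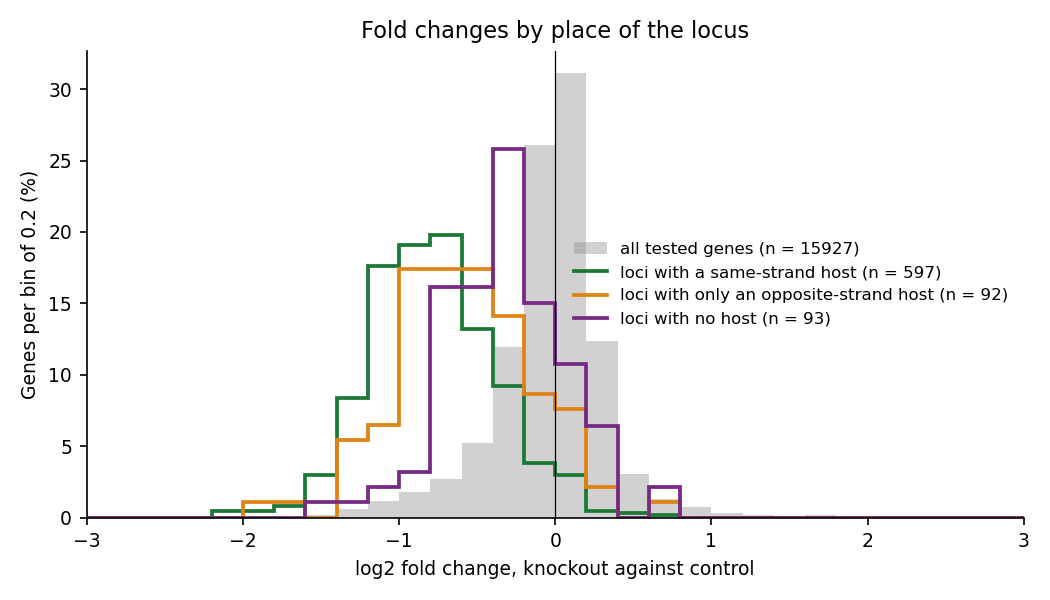
Share of genes (percent, vertical axis) in bins of 0.2 of the log2 fold change, knockout against control (horizontal axis), for all 15927 tested genes (grey) and for loci with a same-strand host (n = 597), with only an opposite-strand host (n = 92) and with no host (n = 93). The medians lie at -0.80, -0.58 and -0.35 for the 3 sets of loci, against 0.00 for all tested genes.

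Base composition went with the change too. The median GC content was 41.3% for the loci, 45.7% for their hosts and 49.6% for tested protein-coding genes, and it was 39.0% for loci called lower and 42.2% for those not called. Quartiles of GC content ran from 28.3% to 37.9%, to 41.2%, to 45.1% and to 62.8%. In these the loci called lower numbered 89 of 196 (45.4%), 60 of 195 (30.8%), 51 of 195 (26.2%) and 23 of 196 (11.7%). Their medians were -0.93, -0.77, -0.67 and -0.45. Protein-coding genes within the same GC bounds had an order of the same direction at smaller shares, with 15.4%, 10.2%, 7.00% and 4.69% lower. Their medians were nearly flat, at -0.03, 0.00, 0.00 and 0.03. The host genes within these bounds had 5 of 13, 20 of 56, 14 of 117 and 25 of 221 lower (38.5%, 35.7%, 12% and 11.3%), with medians of -0.33, -0.06, -0.07 and -0.05. Below the median GC of the loci, 41.0% of those with a same-strand host, 37.5% of those with only an opposite-strand host and 9.38% of those with no host were lower, and at or above it 23.7%, 13.3% and 3.28%. The part of GC content in the falls was not tested. The length of the host intron showed an order as well. From the shortest quartile of introns, under 9352 bases, to the longest, the medians were -0.63, -0.81, -0.85 and -0.999, and 26.6%, 38%, 34.5% and 37.8% were lower. Where the locus lay within its intron made little difference to the share, which was 31.5%, 38%, 36.6% and 30.8% from the quartile nearest the upstream exon to the farthest. Loci with AATAAA in their last 50 bases were lower in 34 of 155 and those without it in 189 of 627. The same loci enter each of these groupings.

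The largest falls among called loci whose average log2 CPM, as edgeR computes it, was 0 or more were mostly in introns of genes of varied function. Gm37310 (ENSMUSG00000103047, chr15:8652106-8655073, minus strand) lies in intron 7 of Slc1a3, a glutamate transporter gene. It stood at 2.08, 5.92, 2.64, 2.57 and 0.703 CPM in controls 1 to 5 and at 0.574, 0.243, 0.660, 1.06 and 0.548 CPM in knockouts 1 to 5. Controls 1 to 4 were above every knockout and control 5 was inside their range. The log2 fold change was -2.16 ± 0.49 (adjusted p = 0.0192). Slc1a3 also fell, by 0.76 ± 0.13 (adjusted p = 0.00627), with no overlap between groups. Gm42946 (chr3:156646320-156648889, plus) in Negr1, a neural adhesion gene, fell by 2.10 ± 0.51, while its host fell by 0.57 ± 0.09. Gm45909 (chr8:93190328-93191358, minus) is in intron 3 of Ces1d, a carboxylesterase that acts on stored fat. It fell by 2.05 ± 0.56, and Ces1d by 0.94 ± 0.12, from 835 ± 118 to 435 ± 64.9 CPM. Gm37205 (chr1:61654423-61657158, plus) in Pard3b, a cell polarity gene, fell by 1.68 ± 0.34 and its host by 0.38 ± 0.07.

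The other 4 loci lay in genes of other kinds, 5730507A11Rik on the opposite strand only and so without a host. Gm45061 (chr6:58973197-58975291, plus) is in intron 1 of BB365896, an antisense RNA gene, and within Fam13a on the other strand; it fell by 1.83 ± 0.47 and BB365896 by 2.15 ± 0.43. 5730507A11Rik (chr2:38862163-38865533, plus) lies only in Nr6a1, an orphan nuclear receptor gene on the opposite strand, and fell by 1.83 ± 0.45. Gm42479 and Gm42484, both in Pcdh7, fell by 1.82 ± 0.41 and 1.78 ± 0.53 with no call for the host. The falls of these 8 loci had adjusted p between 0.0140 and 0.0441. Most rested on few counts, and single libraries decided several of the calls. Gm37205 was called in all 10 fits that leave out a library and Gm37310 in 9, with adjusted p = 0.0515 and a value of -1.69 without control 2. Gm42479 was called in 8, all but those without control 1 (-1.72) or control 2 (-1.70), and Gm42946 in 6, not without control 1 (-1.77), control 2 (-2.00), knockout 2 (-2.02) or knockout 5 (-1.90). Gm45061 (not without control 1, 2 or 3 or knockout 3 or 5; -1.55 to -1.86) and 5730507A11Rik (not without control 1, 2 or 4 or knockout 2 or 5; -1.61 to -1.83) were called in 5. Gm45909 was called in 4, not without control 1, 2 or 4 or knockout 2, 4 or 5 (-1.77 to -2.05). Gm42484 was called in 1, that without control 5.

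Of the 6 most abundant loci, 2 fell and 4 were not called. Gm44250 (ENSMUSG00000107881, chr6:5216258-5220486, minus strand) was the highest, and it begins 365 bases downstream of the end of Pon3, a paraoxonase gene on the same strand. Its levels were 67.0, 54.0, 56.1, 57.9 and 77.9 CPM in controls 1 to 5 and 53.5, 59.3, 62.0, 59.7 and 75.02 CPM in knockouts 1 to 5. The groups overlapped throughout, with control 5 and knockout 5 the highest, and the log2 fold change was -0.02 ± 0.11 (adjusted p = 0.937). For Pon3 it was -0.07 (adjusted p = 0.537). Gm37829 (chr7:81530309-81532521, minus), which begins 786 bases downstream of Fsd2 and overlaps the opposite-strand RNA gene 2900076A07Rik in part, was at 17.7 ± 1.05 and 17.0 ± 2.73 CPM (adjusted p = 0.739). Gm37352 (chr8:84200869-84203049, plus), with no host, was at 16.3 ± 3.01 and 12.5 ± 2.24 CPM (adjusted p = 0.0994), and was called without control 5 (adjusted p = 0.0483). Gm43197 (chr6:3336772-3339354, minus), in the RNA gene Gm20559, was at 15.8 ± 3.66 and 11.0 ± 3.17 CPM (adjusted p = 0.0994), and was called without control 5 (0.0367) or knockout 1 (0.0228).

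Peg13 (chr15:72805600-72810324, minus strand), an imprinted RNA expressed from the paternal chromosome, lies in intron 20 of Trappc9, a gene of a vesicle tethering complex. It was at 49.0, 48.8, 45.5, 44.3 and 45.1 CPM in controls 1 to 5 and at 37.5, 37.5, 38.6, 42.4 and 39.2 CPM in knockouts 1 to 5. Every control was above every knockout, control 5 included, and the fall was small, -0.25 ± 0.06 (adjusted p = 0.0189; 0.0601 without control 1, 0.0600 without control 2 and 0.0757 with no filter on low counts). Trappc9 was at 41.7 ± 2.13 and 42.2 ± 5.06 CPM (adjusted p = 0.908), and the difference of locus and host was not called (adjusted p = 0.202). Per length, Peg13 stood at 187% of its host in controls and 155% in knockouts.

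9330162G02Rik (chr7:59223847-59254788, minus strand) was the longest locus at 30942 bases in 1 exon block. It overlaps part of Ube3a, an imprinted ubiquitin ligase gene on the other strand, and starts 53135 bases downstream of Snhg14, the long host RNA of the same imprinted cluster. Its levels were 55.1, 57.5, 39.0, 56.0 and 24.7 CPM in controls 1 to 5 and 27.4, 20.3, 26.0, 23.2 and 15.7 CPM in knockouts 1 to 5. Control 5 was inside the knockout range and the other controls were above it. The fall was -1.04 ± 0.21 (adjusted p = 0.0142), and it was called in all 10 fits that leave out a library (0.00128 to 0.0435). Snhg14 had a log2 fold change of -0.75 (adjusted p = 0.0273).

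To set each locus against its own host, the log2 ratio of the locus to the host was taken within each library (1 CPM added to each) and compared between the groups with limma, over all 821 pairs in which a tested gene of any class lies inside a tested same-strand gene. Of the 590 pairs of a locus described here and its host, 107 had a lower ratio in the knockouts (18.1%), 1 had a higher ratio and 482 were not called. Over all 821 pairs, 14.6% were lower and 0.487% higher, and of the 231 pairs whose nested gene was of another class, 13 were lower (5.63%). The median difference of the 590 pairs was -0.31 on this scale, which understates the change of low loci; with 0.25 CPM added it was -0.52. Per kilobase of exon, the median locus stood at 12.0% of its host in controls and at 7.43% in knockouts, and this level was lower in 562 of the 590 pairs. The fold change of the locus was below that of its host in 561 of 590. Without control 5, 283 of 607 ratios were lower, with 45 of 286 for the pairs of other classes, and without control 2, 30 of 604, with 1 of 249. Without control 1 they were 38 of 594 and 3 of 241, without control 4 they were 37 of 604 and 4 of 243, and without knockout 5 they were 31 of 613 and 3 of 302. Without knockout 2 they were 43 of 606 and 5 of 290, and without knockout 4 they were 64 of 612 and 12 of 301.

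What the host did bore on these ratios. Of the loci in hosts that fell, 59 of 107 fell themselves, but 3 of the 107 ratios were lower, those of Gm37663 to Tcf12, Gm43421 to Zfp644 and Gm44667 to Mef2a. On this scale, which understates the change of low loci, 78 of these 107 differences were below 0. In hosts that were not called, 136 of 469 loci fell and 95 ratios were lower. In the 11 hosts that rose, which hold 14 loci, 2 loci fell (Gm16310 in Mrps6 and Gm42659 in Capza1) and 9 ratios were lower; a ratio holds the change of the host as well as that of the locus. Adam12, a metalloprotease gene, was such a host, at 99.7 ± 8.76 and 138 ± 21.1 CPM (0.47 ± 0.10, adjusted p = 0.0165). Gm19514 inside it (chr7:134095790-134100278, minus strand) was at 2.31 ± 1.20 and 1.04 ± 0.293 CPM and was not called by itself (adjusted p = 0.0666), while the difference to the host was -1.08 ± 0.21 (adjusted p = 0.00784). Across the 590 pairs the fold changes of locus and host had a Pearson r of 0.357 and a Spearman rho of 0.306. These describe genes measured in the same libraries, and loci in 1 host share that host; without hosts of more than 1 locus r was 0.394.

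**Figure D3:**
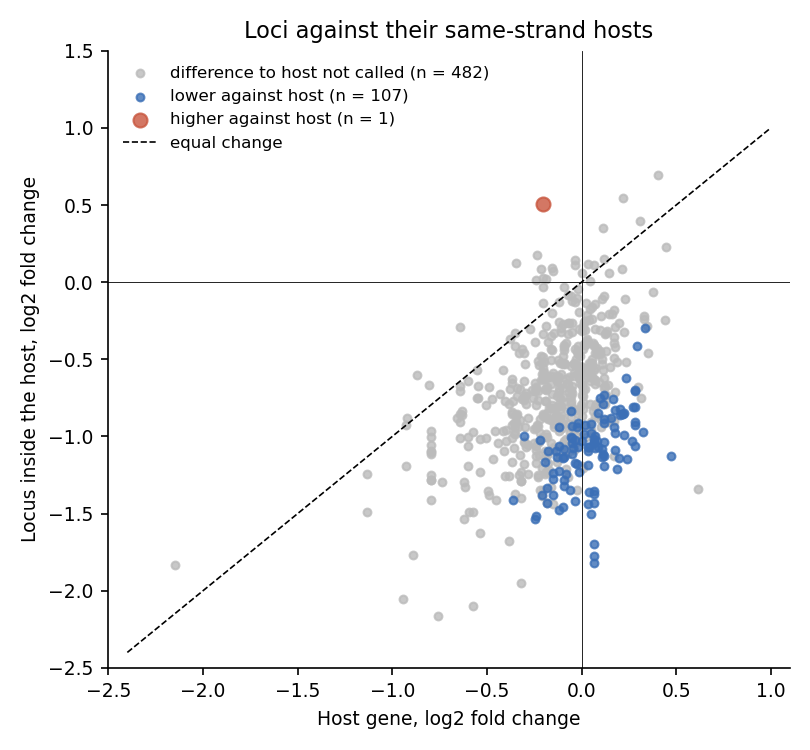
Log2 fold change of each locus (vertical axis) against that of its same-strand host (horizontal axis), knockout against control, for 590 pairs; colour marks the call on the ratio within libraries and the dashed line equal change. In 561 of 590 pairs the point lies below the line. The 1 locus with a higher ratio, Gm37975, lies above it, at 0.51 with its host at -0.20.

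The pairs with the smallest p were in hosts of different kinds. Snrk, a kinase gene of the AMPK family, was not called, with 302, 285, 354, 293 and 237 CPM in controls 1 to 5 and 207, 307, 262, 251 and 297 CPM in knockouts 1 to 5 (adjusted p = 0.400). Gm47122 in its intron 2 (ENSMUSG00000111003, chr9:122119145-122119495, plus strand), whose end with its AATAAA is printed above, was at 6.43, 6.81, 7.32, 7.84 and 5.45 CPM in controls 1 to 5. It was at 2.24, 2.43, 3.17, 3.19 and 3.35 CPM in knockouts 1 to 5. No control overlapped a knockout, control 5 included. The fall was -1.24 ± 0.15 (adjusted p = 0.00125), and the difference to Snrk was -0.85 ± 0.16 (adjusted p = 0.00784). 4632418H02Rik in the same intron (chr9:122127294-122130014, plus) was at 13.8, 16.2, 13.5, 16.5 and 5.80 CPM in controls 1 to 5 and 2.87, 4.80, 6.99, 6.44 and 6.16 CPM in knockouts 1 to 5. Here control 5 lay among the knockouts. Gm47121 in intron 6 (chr9:122142449-122143708, plus), a sense_intronic locus of 2 exon blocks, was at 5.18, 5.48, 3.38, 4.60 and 2.23 CPM in controls 1 to 5. In knockouts 1 to 5 it was at 0.862, 1.34, 2.04, 1.73 and 2.05 CPM. Those groups did not overlap. The falls were -1.27 ± 0.28 (adjusted p = 0.0166) and -1.38 ± 0.28 (adjusted p = 0.0141), and both ratios to Snrk were lower (adjusted p = 0.00840 and 0.0115).

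Picalm, a clathrin assembly gene, was at 574, 561, 617, 577 and 556 CPM in controls 1 to 5 and 525, 663, 652, 581 and 711 CPM in knockouts 1 to 5 and was not called (0.12 ± 0.08, adjusted p = 0.348). All 4 tested loci inside it fell, and all 4 ratios to the host were lower. Gm45222 in intron 1 (ENSMUSG00000109498, chr7:90145948-90150254, plus strand) was at 9.999, 15.0, 9.22, 15.1 and 6.80 CPM in controls 1 to 5 and 4.42, 5.96, 5.94, 4.31 and 4.93 CPM in knockouts 1 to 5. The groups did not overlap, and the fall was -1.13 ± 0.21 (adjusted p = 0.00980). Gm45223, upstream in the same intron (chr7:90132492-90137629), fell by 1.04 ± 0.20, Gm45220 in intron 19 by 0.92 ± 0.19 and Gm45221 in intron 12 by 0.89 ± 0.21. Gm45222 and Gm45223 differ in their printed ends, where Gm45222 holds AATAAA and Gm45223 does not, and their falls differed by less than their standard errors. The loci in 1 host are not replicates, since they share the host's intron RNA.

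**Figure D4:**
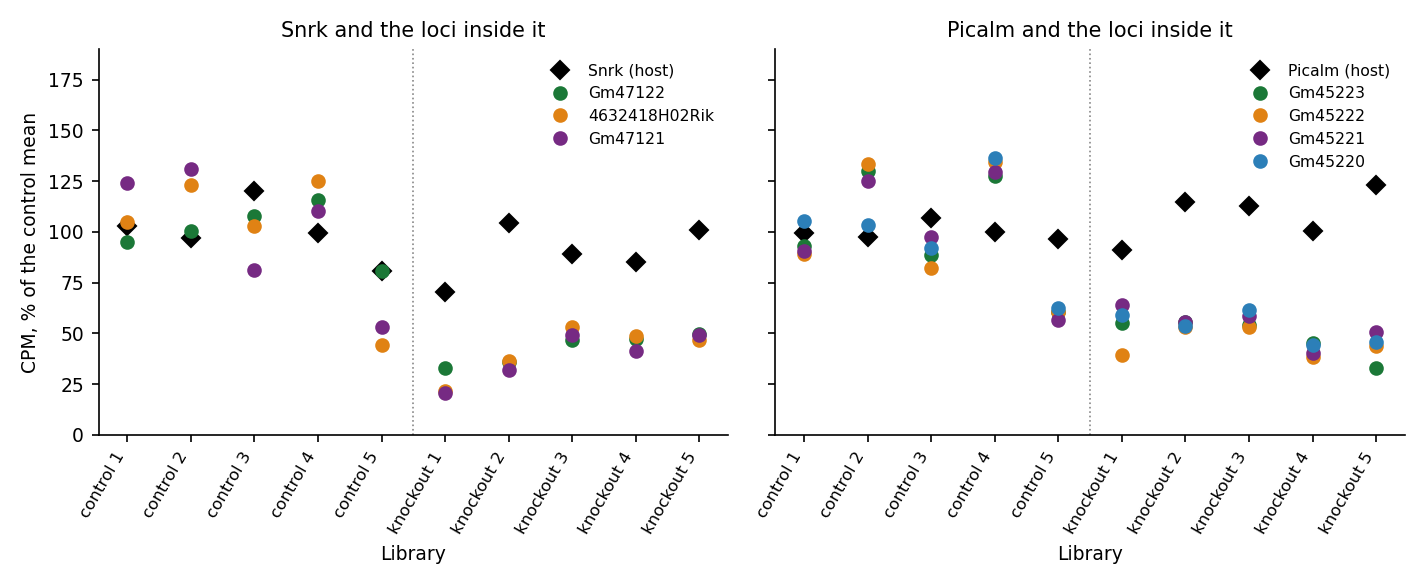
CPM of Snrk and 3 loci inside it (left) and of Picalm and 4 loci inside it (right) in each library, as percent of the mean of the controls (vertical axis); diamonds are the host and circles the loci. In the knockouts the loci lie below the host in every library, and in control 5 all of them lie below their own control mean.

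The remaining pairs of smallest p were Gm37531 and Gm48582. Gm37531 (chr1:59929688-59935102, plus strand) in Fam117b was at 3.33, 4.58, 4.92, 6.22 and 2.40 CPM in controls 1 to 5 and 1.49, 1.155, 1.98, 1.73 and 1.99 CPM in knockouts 1 to 5. The groups did not overlap. The difference to the host, which was at 34.2 ± 3.92 and 35.1 ± 3.36 CPM, was -0.99 ± 0.19 (adjusted p = 0.00784). Gm48582 (chr13:60622967-60629395, plus) in Dapk1, a kinase gene of cell death signalling, was at 5.32 ± 1.41 and 2.49 ± 0.512 CPM with no overlap, and its host at 67.4 ± 2.51 and 69.0 ± 4.24 CPM. The difference was -0.87 ± 0.18 (adjusted p = 0.00784). The ratios of Gm45222, Gm37531, Gm19514, Gm47122 and Gm48582 were called lower in all 10 fits that leave out a library.

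Gm37975 (ENSMUSG00000102376, chr2:11532596-11534694, minus strand) was the only locus called higher. It lies in intron 1 of Pfkfb3, which encodes a glycolytic regulator. It was at 8.81, 10.1, 12.6, 11.7 and 10.1 CPM in controls 1 to 5 and 14.02, 15.8, 15.4, 13.3 and 17.3 CPM in knockouts 1 to 5. Every knockout lay above every control. The rise was 0.51 ± 0.11 (adjusted p = 0.0166), and it was lost without control 2 (0.49, adjusted p = 0.0517). Pfkfb3 varied widely, at 788, 575, 495, 635 and 550 CPM in controls 1 to 5 and 534, 650, 610, 378 and 471 CPM in knockouts 1 to 5 (-0.20 ± 0.15, adjusted p = 0.378). The difference to the host was 0.69 ± 0.20 (adjusted p = 0.0274), called in 5 of 10 fits and not called when control 1 (0.53), control 2 (0.69), control 4 (0.70), knockout 4 (0.62) or knockout 5 (0.61) was left out. The other locus with all knockouts above all controls, Gm37844, has no same-strand host and was at 1.46 and 1.90 CPM (adjusted p = 0.134).

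In total 19 hosts held at least 4 tested loci, 99 loci in all, of which 42 were called lower. Of all 597 tested loci with a same-strand host 198 were lower (33.2%), and of all tested genes 7.05%. Of the 19 hosts, 4 fell, 0 rose and 15 were not called, where 64 of all 407 tested hosts fell (15.7%). Mir99ahg, the host RNA gene of a microRNA cluster on chromosome 16, held the most, 10. It is also in the list of nuclear-retained RNAs. It fell with its loci: the host was at 31.9, 45.4, 21.4, 38.2 and 23.6 CPM in controls 1 to 5 and 19.9, 16.0, 21.3, 20.8 and 14.3 CPM in knockouts 1 to 5 (-0.79 ± 0.19, adjusted p = 0.0232). All controls lay above all knockouts, with control 3 just above knockout 3. The 10 loci had values from -1.41 to -0.97, all below the host's, 5 of them called, and 0 of their ratios to the host were lower. Summed, the loci were at 36.4 CPM in controls and 15.6 in knockouts, against 32.1 and 18.5 for the host. The CPM added in the ratios understates the change of such low loci. Mir99ahg lost its own call without control 1, 2 or 4 or knockout 2 or 5 (adjusted p 0.0552 to 0.0633).

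Pcdh7, a protocadherin gene on chromosome 5, was the contrary case. The host was at 96.6, 91.9, 103, 105 and 100 CPM in controls 1 to 5 and 98.0, 96.1, 105, 106 and 115 CPM in knockouts 1 to 5 (0.06 ± 0.06, adjusted p = 0.505). Its 8 loci, summed, were at 17.9, 21.01, 9.47, 21.4 and 8.32 CPM in controls 1 to 5 and 6.84, 6.20, 6.93, 6.90 and 4.65 CPM in knockouts 1 to 5. The sums did not overlap, but controls 3 and 5 were well below the other 3 controls. Of the 8 loci, 6 fell and 6 ratios were lower, with values from -1.82 to -0.997. The loci with the largest falls, Gm42479, Gm42484 and Gm42640 (-1.70 ± 0.46), lie in introns 5 and 6.

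The other hosts lay between these. Tcf12, a transcription factor gene, fell a little (-0.24 ± 0.06, adjusted p = 0.0242), and 5 of its 7 loci fell, with values from -1.52 to -0.68 and 1 lower ratio. Auts2, a chromatin regulator gene, was not called (-0.32 ± 0.14), and 4 of 5 loci fell, from -1.95 to -1.23, with 0 lower ratios at a host level of 7.76 CPM. Magi3, a junction scaffold gene, was not called and had 4 of 6 loci and 2 ratios lower. Dip2c had 3 of 5 loci and 3 ratios lower, and Camk2d, a calcium-dependent kinase gene, 2 of 4 and 2. Rap1a, a small GTPase gene, had a host value of 0.18 ± 0.07 (adjusted p = 0.0937), 1 of 4 loci lower and 3 lower ratios. Fgfr2, a growth factor receptor gene, had 1 of 6 loci and 1 ratio lower, Ldb2 2 of 5 and 1, and Med13l, a Mediator subunit gene, 1 of 4 and 1. Rabgap1l (1 of 4) and Kansl1l (2 of 4; host -0.60 ± 0.14, adjusted p = 0.0207) had 0 lower ratios. In Gm4258 (6 loci), Apbb2, Dennd1b and Fli1 (4 each), 0 loci and 0 ratios were called. Fli1, a transcription factor gene of endothelial and blood cells, had loci at -0.63 to -0.52, and Apbb2 itself fell by 0.37 ± 0.09. The calls of Tcf12, Apbb2 and Kansl1l were lost without control 1, 2 or 4 or knockout 5, and that of Tcf12 also without knockout 2 and with no filter on low counts (adjusted p 0.0501 to 0.0866).

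**Figure D5:**
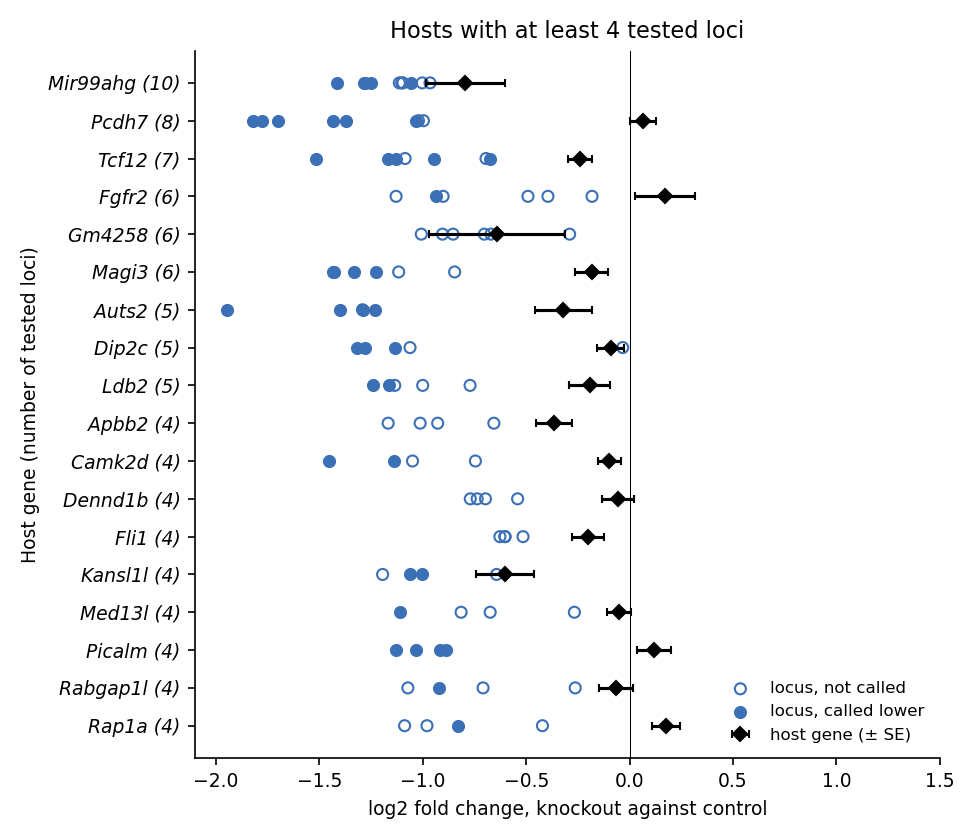
Log2 fold change, knockout against control (horizontal axis), of the tested loci (circles, filled where called lower) and of the host gene (diamond with SE) for 18 hosts with at least 4 tested loci; the number of loci is in parentheses. The loci of Pcdh7 lie from -1.82 to -0.997 with the host at 0.06, and those of Mir99ahg from -1.41 to -0.97 with the host at -0.79.

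Genes that make, splice or remove such RNA were followed from lists. Beside the counts below, the same test called 7.05% of all tested genes lower and 5.84% higher. The nuclear exosome and its adaptors, which degrade intron and other nuclear RNA, had 2 of 22 tested genes higher, C1d (0.27 ± 0.08) and Exosc2 (0.30 ± 0.09), and 0 lower. Rbm7 (0.21 ± 0.07, adjusted p = 0.0543) and Zfc3h1 (-0.30 ± 0.10, adjusted p = 0.0627) were not called. Of 37 spliceosome and splicing genes, 1 was lower, Snrnp200 (-0.20 ± 0.06), a helicase of the U5 particle, and 0 higher; Hnrnpa2b1, Snrpe and Prpf19 came next by p and had adjusted p of 0.0502, 0.0503 and 0.0626. Of 29 genes of transcription elongation and termination, 4 were lower and 1 higher. The lower genes were Ccnt2 (-0.43 ± 0.11), a cyclin of the elongation kinase, Pcf11 (-0.38 ± 0.10), a termination factor, and the Paf1 complex genes Rtf1 (-0.24 ± 0.07) and Cdc73 (-0.25 ± 0.07). The higher gene was Leo1 (0.23 ± 0.07), of the same complex. The calls for C1d, Exosc2, Snrnp200, Rtf1, Cdc73, Ccnt2 and Pcf11 had adjusted p of 0.0247 to 0.0434 and held in 1 to 5 of the 10 fits that leave out a library.

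Markers of the cell types of the depot moved in several lists, where 7.05% of all tested genes were called lower and 5.84% higher. Of 10 endothelial markers 8 were lower, with summed levels of 1111 to 1427 CPM in controls and 923 to 1064 in knockouts, and of 6 tested Schwann cell markers 3 were lower (221 to 250 and 200 to 232 CPM). B cell markers had 6 of 12 higher (689 to 997 and 883 to 1829 CPM) and T cell markers 5 of 12, Cd3e, Cd3d, Cd3g, Lck and Cd8b1 (48.4 to 54.9 and 49.7 to 188 CPM), with knockout 1 the highest in both. Of 10 adipocyte markers Lep was higher and Retn and Slc2a4 were lower (23007 to 29275 and 25284 to 34281 CPM). No macrophage, progenitor and fibroblast or skeletal muscle marker was called. Their summed levels were 2221 to 2790 and 2263 to 2614 CPM, 7311 to 8517 and 7411 to 8854 CPM, and 25.8 to 567 and 40.8 to 747 CPM. Of 8 epithelial markers 0 passed the filter on low counts. Control 5 had skeletal muscle markers at 567 CPM, against 25.8 to 103 in controls 1 to 4. It was the lowest control for endothelial markers (1111, the others 1259 to 1427). For B cell (997, the others 689 to 818) and macrophage markers (2790, the others 2221 to 2519) it was the highest. Its adipocyte and Schwann cell markers lay just outside the range of the other controls, and its T cell and progenitor markers inside. Among genes that hold a locus on their opposite strand, only Cd247, a T cell marker, was in a cell type list. Gm37856, the locus on its opposite strand, was not called (-0.11 ± 0.26). Same-strand hosts were not searched for in the cell type lists. The part of cell makeup in the falls of the loci was not tested.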

How the data were processed

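Gene expression was measured by RNA-seq of total RNA (TruSeq Stranded Total RNA kit with Ribo-Zero Gold, per the labels' protocols) in 10 libraries, 5 control and 5 knockout. The authors deposited 1 table of raw counts per gene; STAR 2.5.2b, featureCounts 1.5.1, DESeq2 1.16.0 and GRCm38 are listed per the submitters' processing notes. The sources used here do not give the strand setting; genes wholly covered by opposite-strand exons were nearly all at 0, so the strand was not used. Of 52636 gene identifiers, 52489 matched GENCODE M21, and 21 of the 15927 tested genes did not. Class, host and coordinates came from that annotation.

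Counts were fitted with edgeR 4.0.16 in R 4.3.3: filterByExpr by group, TMM scaling, the quasi-likelihood test and Benjamini-Hochberg adjustment over all tested genes, called at adjusted p below 0.05. CPM are relative to the TMM-scaled library size. Ratios of a nested gene to its host (1 CPM added) were fitted with limma 3.58.1 with a trend and adjusted over all nested pairs. The host of a locus was the same-strand gene that contains it, protein-coding genes first and then the longest. Both fits were tested on simulated data with known changes. All 20 pairs of libraries of 1 group differed by more than sampling noise (chi-square per degree of freedom 6.57 to 26.2). Each library was counted as 1 sample, although this check cannot show that the libraries came from separate mice. A count of 3 in a library is 0.172 to 0.205 CPM, and precision covers counting error only within a library.

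Named were Tcf7l2, the 8 largest rises and falls among called loci whose average log2 CPM reached 0 and their hosts, the 6 loci of highest CPM, the 5 pairs of smallest p in each direction, hosts with at least 4 tested loci, the loci nearest the threshold, Malat1, Neat1 and up to 4 genes of smallest p per list of RNA metabolism. Also named, after their values were seen, were all loci in Snrk and Picalm, Gm42640, Gm37844, called members of sets of 5 or fewer, and the neighbours of named loci. The members, lists and rules were chosen with earlier results of these data known. Alternatives were other scalings, DESeq2 1.42.0, limma-voom with sample weights, no filter, stricter or narrower sets, another added CPM and leaving out each library. One host with at least 4 tested loci, the names of some markers and 1 sequence are not reported here.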

Additional observations from a re-analysis of the deposited data

Results flagged for a closer look

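In 138 groups of 5 libraries looked at over the named genes, loci and ratios, 3 had 1 library far from the other 4; chance gives about 1 in 20 such groups. Slc1a3, the host of Gm37310, was highest in knockout 5, at 74.5 CPM with the next knockout at 64.6. Camk2d, host of 4 loci, was lowest in knockout 1, at 113 CPM with the next at 119. The log2 difference of Gm48582 to its host Dapk1 was highest in knockout 5, at -4.05 with the next at -4.37. In the comparison of groups, each of these libraries stayed on the same side of the controls' mean as the other knockouts.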

How the results depend on the processing

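The count of loci called lower, 223, was 223 to 230 with the other scalings, 260 with DESeq2 and 244 with no filter on low counts, where 214 and 199 of the 223 were called again. It was 364 with limma-voom and sample weights, which called 3605 genes in all against 2053, and 147 of the 398 loci at 10 counts in all libraries, a set with fewer loci. Loci called higher numbered 2 with DESeq2, limma-voom and no filter. Leaving out 1 library gave 35 to 384 loci lower, 0 to 2 higher, 537 to 3094 genes in all, 30 to 283 ratios lower and 0 to 3 higher. In all of these the loci's median stayed below 0, and without control 5 all 223 loci were called again. Ratios called lower numbered 102 to 135 under the other 5 settings, and the median difference was -0.52 with 0.25 CPM added. The cause of these shifts was not tested. No named gene reversed its direction where called. No paired analysis was possible because the replicate numbers follow accession order and pair no libraries. Depth at single loci was low: the median locus had 11 to 32 counts in a library.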
